A study of Mus musculus with 4 samples.

Results

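The report concerns 10 genes that move calcium ions across the membranes of brain cells: the IP3 receptors Itpr1, Itpr2 and Itpr3, the ryanodine receptors Ryr1, Ryr2 and Ryr3, the sarco/endoplasmic reticulum pump Atp2a2, and the plasma membrane pumps Atp2b1, Atp2b2 and Atp2b4. They were picked by symbol, and all 10 were found among the 32285 genes of the deposited matrices. Of these, 9 had enough UMIs (unique molecular identifiers, each standing for 1 captured RNA molecule) to be tested in at least 1 comparison, while Itpr3 was left with 14 UMIs in all kept nuclei and was not tested.

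Single-nucleus RNA was measured in sections of frozen brains from female 5XFAD mice, a transgenic line that carries human amyloid precursor protein and presenilin genes with familial Alzheimer's disease mutations, expressed in neurons. The mice were 7 to 10 weeks old when they received intravenous engineered EVs (extracellular vesicles, derived from adipocytes) low in phosphatidylethanolamine (PE-low) or high in it (PE-high). Each group had 2 libraries, each pooled from 2 mice, so n = 2 libraries per group, and all animals carried the 5XFAD transgenes. No mice without EVs and no mice without the transgenes were analysed here, so PE-low is the only reference.

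Calcium is stored in the endoplasmic reticulum. IP3 receptors open when inositol trisphosphate, made by phospholipase C downstream of receptors such as the metabotropic glutamate receptors, binds them, and ryanodine receptors open when cytosolic calcium itself rises. The pump encoded by Atp2a2 (SERCA2) returns calcium to the store, and the plasma membrane pumps (PMCA) export it from the cell. Itpr1 is best known from Purkinje cells and striatal neurons, Itpr2 from astrocytes and other glia, Ryr1 from skeletal muscle and Ryr2 from the heart, while Ryr2 is also the main ryanodine receptor of the forebrain.

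On mm10 with GENCODE M21, all members are protein-coding genes. The 3 longest genes are Ryr3 (585.742 kb, chromosome 2, 112631355 to 113217096, minus strand), Ryr2 (553.844 kb, chromosome 13, 11553102 to 12106945, minus strand) and Itpr2 (393.925 kb, chromosome 6, 146108299 to 146502223, minus strand). Itpr1 lies on the same chromosome 6 (108213096 to 108551109, plus strand), as does Atp2b2 (113743831 to 114042613, minus strand). Ryr1 spans 29003344 to 29125179 of chromosome 7 (minus strand) and Atp2b1 98914406 to 99026143 of chromosome 10 (plus strand). Atp2b4 is at 133699457 to 133801041 of chromosome 1 (minus strand), Atp2a2 at 122453513 to 122502225 of chromosome 5 (minus strand) and Itpr3 at 27057304 to 27122223 of chromosome 17 (plus strand). Counts of nuclear RNA depend on gene length where intronic reads are counted, so levels were compared between classes of nuclei for the same gene and never between genes.

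RefSeq promoter windows of GRCm38.p6, 250 bases before to 50 bases after an annotated start, were found for 7 of the members (10 windows), and none for Itpr1, Ryr3 and Atp2a2. The windows below belong to 4 members on which the class comparisons turn: Ryr1 and Atp2b1 were higher in striatal than in excitatory nuclei, Ryr2 was lower there, and Itpr2 was higher in glia. Capitals mark the letters GGGCGG (a GC box, the core of a site of Sp family factors) or their reverse complement CCGCCC, with overlapping matches counted separately.
Ryr1 (chr7:29125102-29125401, minus strand): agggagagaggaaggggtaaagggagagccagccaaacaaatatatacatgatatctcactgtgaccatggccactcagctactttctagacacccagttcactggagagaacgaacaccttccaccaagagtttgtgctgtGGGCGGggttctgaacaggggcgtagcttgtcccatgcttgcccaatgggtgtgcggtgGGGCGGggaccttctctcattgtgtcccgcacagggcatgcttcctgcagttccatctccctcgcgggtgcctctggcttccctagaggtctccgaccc
Atp2b1 (chr10:98914392-98914691, plus strand): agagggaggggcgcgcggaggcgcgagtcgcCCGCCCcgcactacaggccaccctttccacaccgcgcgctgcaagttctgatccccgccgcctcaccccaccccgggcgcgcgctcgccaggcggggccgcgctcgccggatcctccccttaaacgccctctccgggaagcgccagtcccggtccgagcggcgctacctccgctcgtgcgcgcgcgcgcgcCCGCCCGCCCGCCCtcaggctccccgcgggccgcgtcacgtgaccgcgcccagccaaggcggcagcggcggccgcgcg
Ryr2 (chr13:12106896-12107195, minus strand): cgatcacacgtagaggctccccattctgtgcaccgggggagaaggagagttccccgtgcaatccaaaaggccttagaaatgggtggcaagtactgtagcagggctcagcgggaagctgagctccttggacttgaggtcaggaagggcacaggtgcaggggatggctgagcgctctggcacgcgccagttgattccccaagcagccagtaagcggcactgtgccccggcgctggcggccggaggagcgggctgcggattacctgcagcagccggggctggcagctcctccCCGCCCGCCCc
Itpr2 (chr6:146502174-146502473, minus strand): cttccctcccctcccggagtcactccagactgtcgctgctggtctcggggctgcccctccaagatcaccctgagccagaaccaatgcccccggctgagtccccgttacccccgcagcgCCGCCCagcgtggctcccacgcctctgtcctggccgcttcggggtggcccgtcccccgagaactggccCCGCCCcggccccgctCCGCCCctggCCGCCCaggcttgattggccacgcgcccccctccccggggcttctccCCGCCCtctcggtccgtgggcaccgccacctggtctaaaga

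The Ryr1 window held 2 such matches, the Atp2b1 window 4, the Ryr2 window 2 and the Itpr2 window 5. Of 32851 promoters of this length, 35.7% held at least 1 match on either strand. None of the 4 windows held the letters TATAAA or TTTATA, which 13.6% of all promoters did. The G+C content was 56.7% for Ryr1, 79.3% for Atp2b1, 65.3% for Ryr2 and 73.3% for Itpr2, against a median of 52.7% over all promoters.

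After filtering, 10688 nuclei were kept, 1457 to 3457 per library, with medians of 1712 to 2885 UMIs per nucleus and 3026179 to 8888951 UMIs per library. The limit of 3% mitochondrial UMIs, as stated by the study, removed 5434 to 12447 called barcodes per library, more than were kept. PE-high replicate 1 was the smallest library. Libraries shared 0 to 4 nucleus barcodes per pair. Nuclei formed 29 clusters, of which 21 met the marker rule and gave 19 classes (8298 nuclei), while 8 clusters (2390 nuclei) stayed unnamed. Members and other calcium genes were kept out of the genes used for clustering. Class names such as upper layer or astrocyte stand for upper layer-like and astrocyte-like nuclei throughout, and in 15 of 19 classes every listed marker was above its mean in the other classes. Of the classes, 16 had at least 10 nuclei in every library. The unnamed cluster led by Baiap3 and Prlr held 92, 423, 55 and 235 nuclei in PE-low 1, PE-low 2, PE-high 1 and PE-high 2. Slc17a6 subcortical nuclei numbered 9, 71, 0 and 20 in the same order. The part of this uneven mix of nuclei in the treatment values was not tested.

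Levels are given as CPM, the UMIs of a gene per 1000000 UMIs of all genes in the nuclei of a class, as mean ± SD over the 4 libraries (n = 4, both groups together). Neighbouring classes in the order of a gene are called apart where the ranges over their 4 libraries did not overlap. Near-empty barcodes, ranked 45000 to 90000 by UMIs, were measured in the same way as a sign of free RNA. Nuclei of 1 library share its preparation, so the nuclei are not replicates.

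Itpr1, the main neuronal IP3 receptor, was highest in striatal projection nuclei. It reached 919 ± 84.5 CPM in the indirect pathway class, with 1042, 905, 877 and 853 CPM in PE-low 1, PE-low 2, PE-high 1 and PE-high 2. The direct pathway class stood at 902 ± 54.5 CPM, and no library of any of the other 14 classes reached the lowest library of either. Other striatal nuclei (610 ± 64.5) and layer 6 corticothalamic nuclei (608 ± 22.9) came next and were not apart from each other. Upper layer (507 ± 37.2), other excitatory (475 ± 33.0), layer 5 (454 ± 74.2) and Sst and Pvalb interneuron (449 ± 75.4) nuclei overlapped in their ranges. The lowest mean was in oligodendrocyte precursors, at 231 ± 96.3 CPM, with 238, 161, 161 and 365 CPM in the 4 libraries. Of the 15 pairs of neighbours in this order 2 were apart. The near-empty level was 359 to 425 CPM, so the levels of the glial classes lay at or under that of free RNA, and their part in these values was not tested.

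Itpr2 had the opposite pattern and was a glial transcript here. Oligodendrocyte precursors held 281 ± 101 CPM (238, 334, 161 and 389), microglia 183 ± 108 CPM (97.6, 197, 107 and 330) and astrocytes 178 ± 78.7 CPM (212, 271, 95.3 and 134). These 3 classes overlapped each other, and each of their libraries was above every library of the other 13 classes. Of the neuronal classes with at least 10 nuclei in every library, Sst and Pvalb interneurons were highest, at 28.5 ± 23.6 CPM, with 0 in PE-high 2. Mature oligodendrocytes had 23.7 ± 11.1 CPM, near the free RNA level of 11.7 to 19.96 CPM. In layer 5 nuclei no Itpr2 UMI was counted among 784110, which allows up to 3.83 CPM by a floor of 3 UMIs. In the 74 nuclei named newly formed oligodendrocyte, too few per library for a test, 144 Itpr2 UMIs gave 1033 CPM over all libraries together, with an exact 95% Poisson interval of 872 to 1217 that covers counting error only. By the same measure over all libraries together, precursors had 321 CPM and mature oligodendrocytes 19.7 CPM. The small classes named Slc17a6 subcortical (49.6 CPM, 16 UMIs) and cholinergic (44.3 CPM, 8 UMIs) were above Sst and Pvalb interneurons (31.5 CPM) by this measure.

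Itpr3, the IP3 receptor of secretory epithelia and taste cells, was at the limit of detection. It had no UMI in 8 of the 16 classes, among them astrocytes and both striatal pathway classes, and at most 2 in any of them. The floors in the classes without a UMI ran from 0.936 CPM in other excitatory nuclei to 9.26 CPM in oligodendrocyte precursors.

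**Figure D1:**
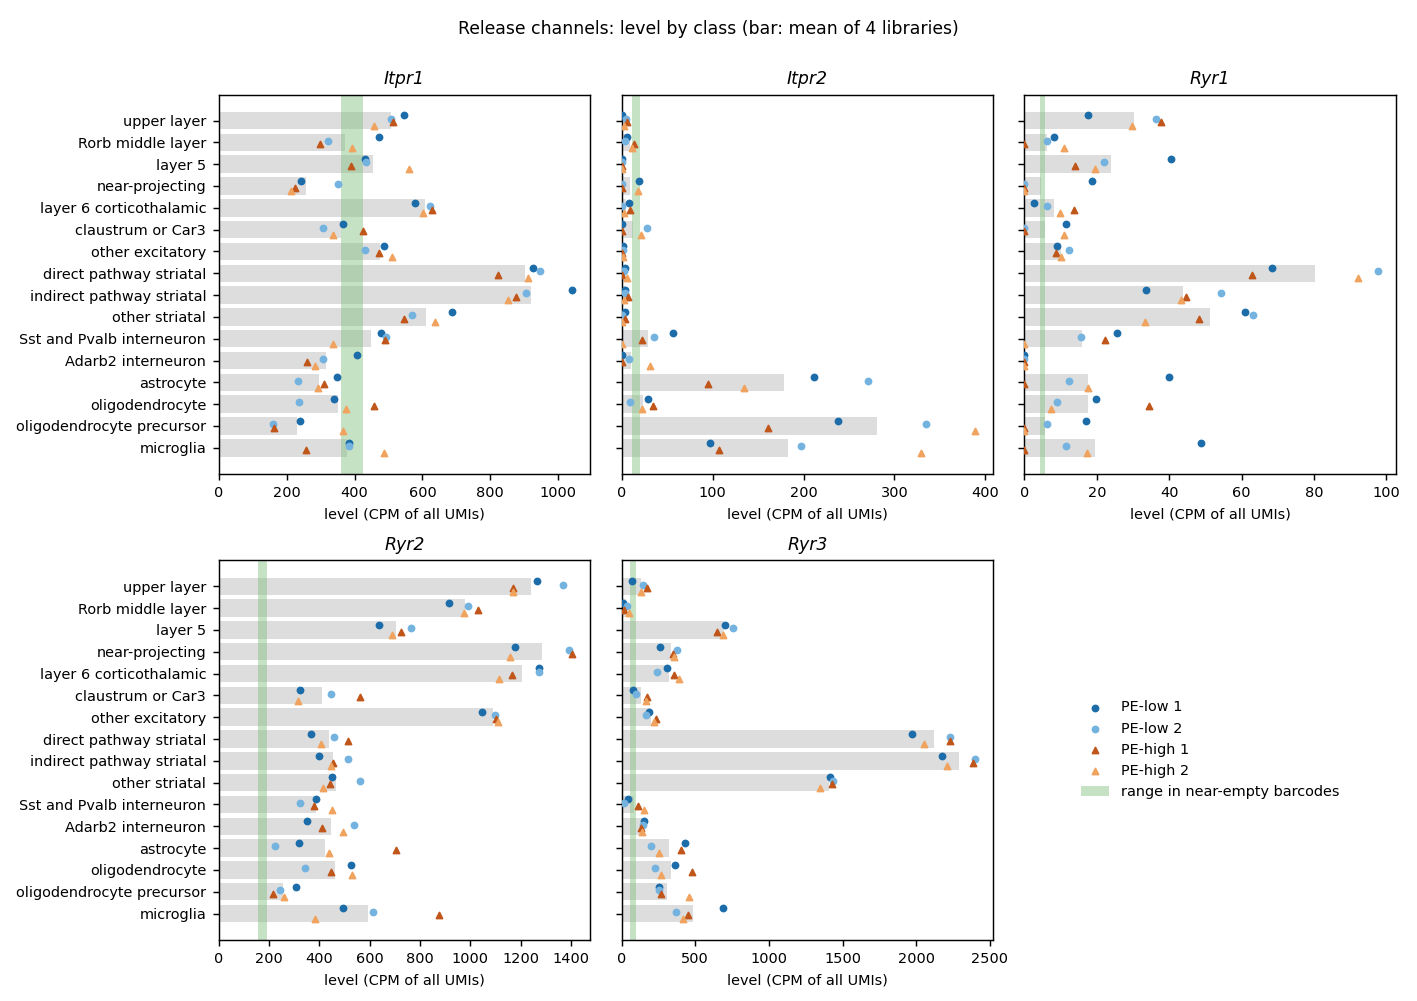
Levels of 5 release channel genes in the 16 classes with at least 10 nuclei in every library. The horizontal axis is the level in CPM of all UMIs, grey bars are means of 4 libraries, points are single libraries (circles PE-low, triangles PE-high) and the green band is the range in near-empty barcodes. Itpr1 and Ryr3 stand out in the direct and indirect pathway striatal classes, Itpr2 in oligodendrocyte precursors, microglia and astrocytes, Ryr1 in striatal classes and Ryr2 in excitatory classes.

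Ryr1, the skeletal muscle isoform, was scarce but measurable in striatal nuclei. The direct pathway class had 80.3 ± 17.2 CPM (68.5, 97.7, 62.8 and 92.3), other striatal nuclei 51.4 ± 13.7 and the indirect pathway class 43.9 ± 8.4 CPM. Of cortical classes, upper layer nuclei had 30.4 ± 9.3 CPM and layer 6 corticothalamic nuclei 8.1 ± 4.8 CPM. Adarb2 interneurons held no Ryr1 UMI among 353976, which allows up to 8.48 CPM. None of the 15 pairs of neighbours was apart, and the free RNA level was 4.18 to 5.69 CPM.

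Ryr2, the cardiac and main forebrain isoform, was highest in excitatory classes. Near-projecting (1284 ± 133 CPM), upper layer (1243 ± 95.1) and layer 6 corticothalamic (1207 ± 79.6) nuclei overlapped at the top of the order, and each was above every library of the 13 other classes. Other excitatory nuclei followed with 1089 ± 28.1 CPM (1048, 1098, 1101 and 1110) and Rorb middle layer nuclei with 977 ± 47.6 CPM (916, 990, 1030 and 973), each apart from the next class. Within the excitatory classes, claustrum or Car3 nuclei had the lowest Ryr2 level, 410 ± 116 CPM, near that of the interneurons and striatal nuclei. Microglia had 592 ± 212 CPM and astrocytes 420 ± 208 CPM, the widest spreads of this gene, and oligodendrocyte precursors had the lowest mean, 255 ± 38.1 CPM. All 16 means were above the free RNA level of 157 to 192 CPM. The 4 neuron markers summed to 1800 to 3418 CPM in the astrocyte libraries, against 5282 to 5654 CPM in upper layer libraries. The part of neuronal RNA in the glial Ryr2 levels was not tested.

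Ryr3, often called the brain isoform, had the steepest order of the members with a UMI in every class. The indirect pathway class reached 2292 ± 117 CPM (2177, 2400, 2385 and 2207) and the direct pathway class 2120 ± 130 CPM (1972, 2228, 2231 and 2049), and both overlapped. Other striatal nuclei followed at 1407 ± 40.2 CPM (1414, 1438, 1429 and 1349), apart from the classes on either side. Layer 5 was the excitatory class with the highest level, 698 ± 45.4 CPM (703, 756, 647 and 686), while Rorb middle layer nuclei had 28.3 ± 18.1 CPM, under the free RNA level of 57.5 to 97.5 CPM. The highest class mean was 81.0 times the lowest. Microglia (482 ± 143), oligodendrocytes (334 ± 114) and astrocytes (323 ± 112) lay between the layer 5 and upper layer (130 ± 42.5) classes. The part of neuronal RNA in these glial Ryr3 levels was not tested.

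Atp2a2, the SERCA pump that refills the store in all neurons and glia, differed least. Near-projecting nuclei had the highest mean, 436 ± 69.4 CPM (412, 538, 383 and 410), and oligodendrocytes the lowest, 206 ± 59.8 CPM (266, 245, 137 and 176), a ratio of 2.11. No pair of neighbours was apart. All 16 means were under the level in near-empty barcodes, 674 to 775 CPM, and free RNA had a larger share of this gene than any class of nuclei did.

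Atp2b1, the most widely expressed plasma membrane pump (PMCA1), followed the striatal pattern of Itpr1 and Ryr3. The indirect pathway class had 1827 ± 82.6 CPM (1832, 1920, 1835 and 1719) and the direct pathway class 1752 ± 127 CPM (1901, 1667, 1627 and 1812), above every library of the other 14 classes. Layer 5 (1228 ± 106), layer 6 corticothalamic (1163 ± 73.2), other striatal (1071 ± 56.1) and upper layer (1062 ± 38.6) nuclei came next. The lowest means were in Sst and Pvalb interneurons, 398 ± 46.8 CPM, and Adarb2 interneurons, 333 ± 72.3 CPM. Near-empty barcodes held 1019 to 1250 CPM, and only the direct and indirect pathway classes were above that range in every library.

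Atp2b2, the fast pump PMCA2 known from hair cells and neurons, was highest in claustrum or Car3 nuclei. Their level of 1222 ± 45.1 CPM (1205, 1167, 1254 and 1263) was above every library of all other 15 classes. Rorb middle layer nuclei had 821 ± 75.4 CPM and upper layer nuclei 683 ± 62.5 CPM, and the remaining classes overlapped with their neighbours down to oligodendrocyte precursors at 325 ± 41.9 CPM. Claustrum or Car3 nuclei were thus at the top for Atp2b2 and at the lower end of the excitatory classes for Ryr2. Near-empty barcodes held 618 to 722 CPM of Atp2b2. Only 2 classes, claustrum or Car3 and Rorb middle layer, were above that range in every library, and 8 classes were under it in every library.

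Atp2b4, the pump PMCA4, had its highest levels in cortical excitatory classes. Upper layer (114 ± 14.8 CPM), layer 6 corticothalamic (95.1 ± 19.6) and other excitatory (93.7 ± 23.2) nuclei had the highest means. Direct (22.7 ± 7.9) and indirect (23.0 ± 2.5) pathway striatal nuclei, Adarb2 interneurons (19.4 ± 18.7), Sst and Pvalb interneurons (15.97 ± 4.7) and Rorb middle layer nuclei (13.4 ± 10.2) had the lowest, and no pair of neighbours was apart. The free RNA level was 99.0 to 131 CPM.

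**Figure D2:**
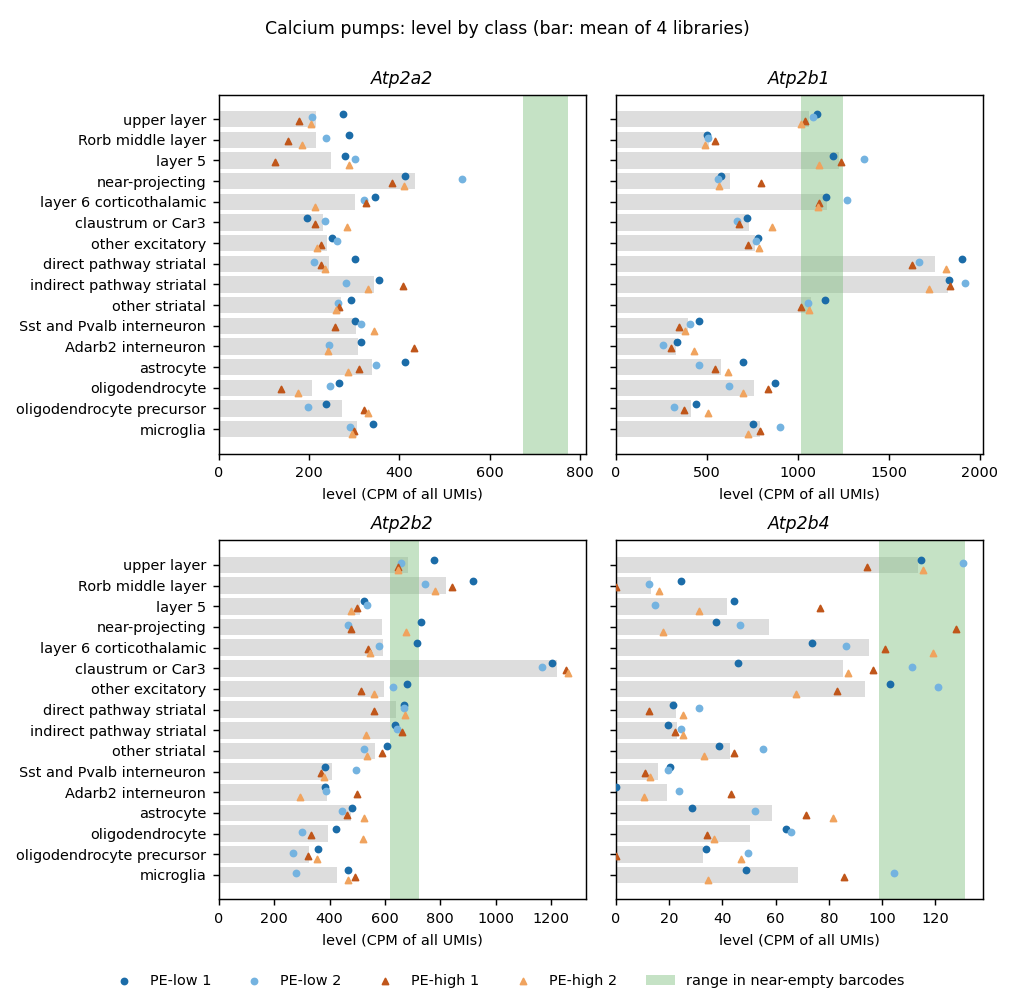
Levels of the 4 pump genes in the 16 classes, drawn as for the release channels: horizontal axis in CPM of all UMIs, grey bars for means of 4 libraries, points for libraries and a green band for near-empty barcodes. Atp2b1 is highest in direct and indirect pathway striatal nuclei, Atp2b2 in claustrum or Car3 nuclei, and all class means of Atp2a2 sit under the band.

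Class differences were tested with edgeR on UMIs summed per class and library, with library as a term (n = 4 libraries for each class), over 6517 genes and with Benjamini-Hochberg adjusted p under 0.1 as the threshold. Values are log2 fold changes ± SE, the SE being the fold change divided by the square root of the F statistic. Each contrast tested 9 members, and 32 of 72 such tests passed.

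Striatal nuclei (3 classes) differed from excitatory nuclei (7 classes) in 6 members. Higher were 4 of 9, against 31.6% of all genes tested, and lower were 2 of 9, against 22.9%. Ryr3 was higher by 3.43 ± 0.09 (10.8-fold, adjusted p = 1.32e-67) and Ryr1 by 2.48 ± 0.21 (5.59-fold, adjusted p = 6.41e-20). Itpr1 was higher by 0.99 ± 0.07 (adjusted p = 2.18e-26) and Atp2b1 by 0.94 ± 0.06 (adjusted p = 2.02e-29). Atp2b4 fell by 0.98 ± 0.17 on the log2 scale (adjusted p = 2.54e-07) and Ryr2 fell by 0.97 ± 0.08 on the log2 scale (adjusted p = 3.01e-22). All 6 passed in each of the 10 alternatives run. Striatal nuclei thus had more Itpr1, Ryr1, Ryr3 and Atp2b1 and less Ryr2 and Atp2b4 than excitatory nuclei, and for Itpr2, Atp2a2 and Atp2b2 no difference passed.

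Direct and indirect pathway striatal nuclei, which bear dopamine D1 and D2 receptors, differed in 2 members: 1 of 9 was higher, against 1.96% of all genes, and 1 of 9 was lower, against 1.83%. Ryr1 was higher in the direct pathway class by 0.92 ± 0.26 (1.89-fold, adjusted p = 0.0203). This call was lost without PE-low 1 (adjusted p = 0.106), without PE-high 2 (0.174) and after subtraction of free RNA (0.262), with log2 fold changes of 0.86 to 0.87. Atp2a2 was lower by 0.43 ± 0.13 on the log2 scale (log2 fold change -0.43, adjusted p = 0.0383), a call lost in 7 of 9 alternatives, including without PE-low 2, PE-high 1 or PE-high 2. Ryr3 did not pass (log2 fold change -0.10 ± 0.15, adjusted p = 0.917).

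Interneurons (2 classes) differed from excitatory nuclei in 6 members. Only Itpr2 was higher, 1 of 9 against 16.4% of all genes, while 5 of 9 were lower, against 14.8%. Itpr2 was higher by 2.35 ± 0.66 (adjusted p = 0.00347) on few UMIs, 22 in Sst and Pvalb interneurons, and this call was lost without PE-high 2 (adjusted p = 0.227). The pumps Atp2b4, Atp2b1 and Atp2b2 fell by 1.85 ± 0.32, 1.21 ± 0.10 and 0.83 ± 0.10 on the log2 scale (adjusted p = 1.21e-06, 4.54e-21 and 1.85e-12). Of the channels, Ryr2 fell by 1.18 ± 0.11 (adjusted p = 8.91e-18) and Ryr3 fell by 0.92 ± 0.20 (adjusted p = 0.000102) on the log2 scale. The Ryr3 call was lost with a mitochondrial limit of 15% (log2 fold change -0.25, adjusted p = 0.176). All 3 plasma membrane pumps among the members were thus lower in interneurons than in excitatory nuclei, and Atp2a2 did not pass (0.12 ± 0.11, adjusted p = 0.52).

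Sst and Pvalb interneurons (1 cluster) were compared with Adarb2 interneurons (1 cluster). These names stand for types that arise mostly from the medial and the caudal ganglionic eminence. Higher were 2 of 9, against 8.65% of all genes, and lower was 1 of 9, against 7.99%. Itpr1 was higher by 0.52 ± 0.20 (adjusted p = 0.0632) and Ryr3 fell by 1.01 ± 0.39 on the log2 scale (adjusted p = 0.0791). Ryr1 passed as well (adjusted p = 0.0456), with 11 UMIs against 0. Taken over all libraries, it was at least 1.86-fold higher by a floor of 3 UMIs over the class. No call of these 3 held in every alternative: all were lost without PE-low 1 and without PE-low 2, Itpr1 and Ryr1 also without PE-high 1 (adjusted p = 0.202 and 0.102), and all changed direction with a mitochondrial limit of 15% (log2 fold changes of -0.69 for Itpr1, adjusted p = 0.000187, 0.07 for Ryr3, 0.935, and -1.52 for Ryr1, 0.50). The classes were rebuilt at that limit, and the cluster then named Sst and Pvalb was led by Nos1 and Tacr1. A cluster led by 6330411D24Rik and Cemip, genes that lead the Sst and Pvalb class here, stayed unnamed there, so these are not the same nuclei. With the 3% limit, a cluster of 223 nuclei with Grin3a, Nos1 and Elfn1 among its leading genes stayed unnamed and was in neither class. Its means were 181 CPM of Itpr1 and 198 CPM of Ryr3, and it held no Ryr1 UMI. The Sst and Pvalb class had 449 and 81.4 CPM of Itpr1 and Ryr3, and the Adarb2 class 315 and 140 CPM. The comparison with that cluster included was not tested.

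Upper layer nuclei differed from layer 6 corticothalamic nuclei in 3 members, 1 of 9 higher against 14.5% of all genes and 2 of 9 lower against 12.3%. Ryr1 was higher by 1.93 ± 0.43 (3.82-fold, adjusted p = 0.00018) and Ryr3 fell by 1.33 ± 0.19 on the log2 scale (adjusted p = 3.69e-09), both in all 10 alternatives. Atp2a2 fell by 0.43 ± 0.12 on the log2 scale (adjusted p = 0.00524), which was lost without PE-low 2 (log2 fold change -0.33, adjusted p = 0.103), without the filter on low counts (-0.39, 0.123) and with a mitochondrial limit of 15% (-0.18, 0.138). Ryr1 and Ryr3 therefore went in opposite directions between these cortical classes, whereas both were higher in striatal than in excitatory nuclei.

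**Figure D3:**
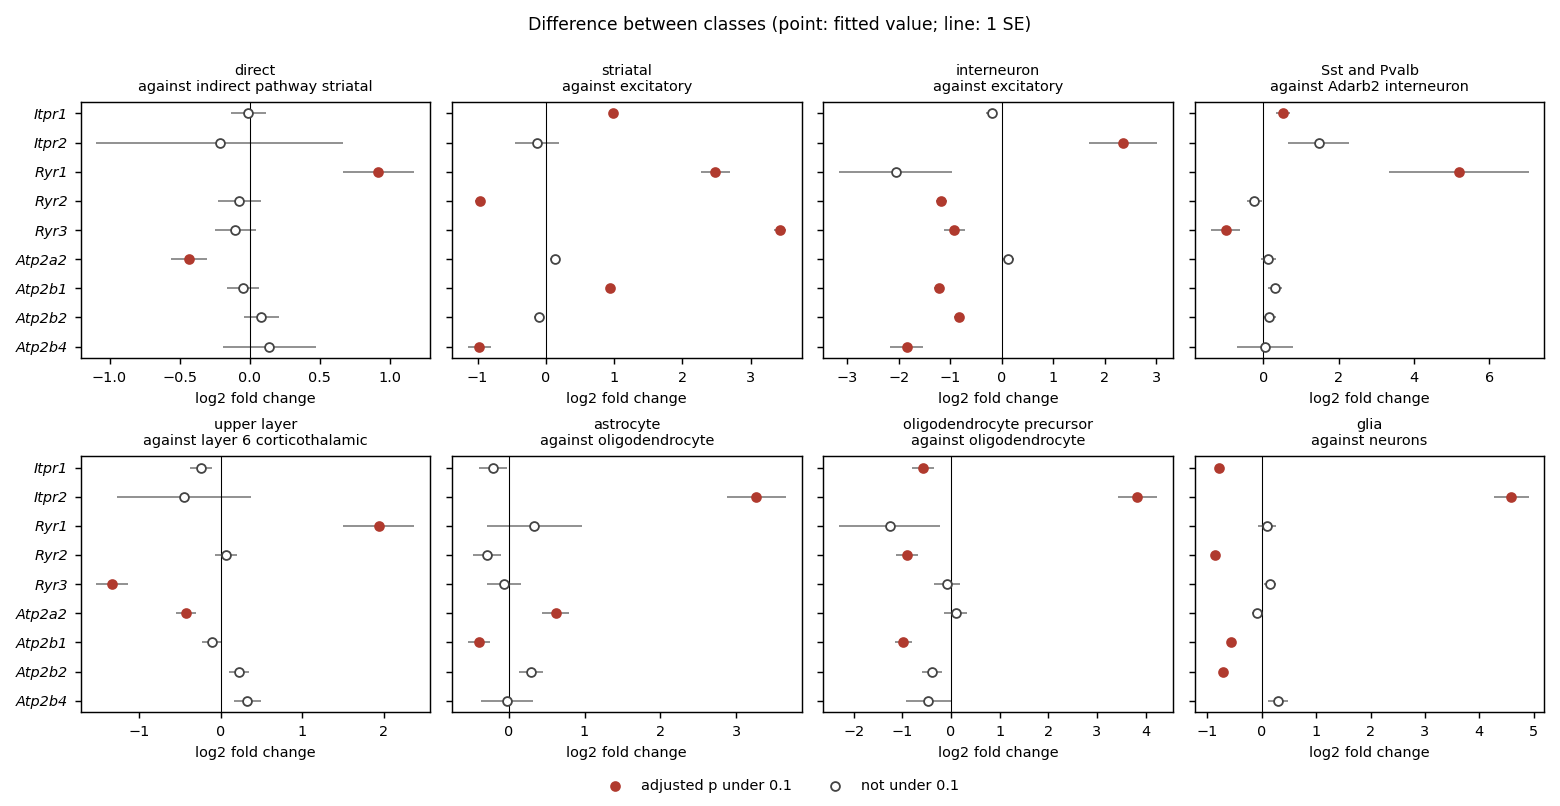
Log2 fold changes of the 9 tested members in the 8 class contrasts, each panel with its own horizontal axis. Points are fitted values, lines span 1 SE, and filled points passed an adjusted p of 0.1. Ryr3, Ryr1, Itpr1 and Atp2b1 lie right of 0 in the striatal panel and Itpr2 lies far right in the 3 glial panels, and the Ryr1 point of the Sst and Pvalb panel rests on a class with 0 UMIs and is no measure of size.

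Glia (4 classes) against neurons (12 classes) gave 1 of 9 members higher, against 27.6% of all genes, and 4 of 9 lower, against 22.3%. Itpr2 was higher by 4.59 ± 0.31 (24.1-fold, adjusted p = 5.29e-26). Ryr2 fell by 0.86 ± 0.08, Itpr1 fell by 0.78 ± 0.08, Atp2b2 fell by 0.72 ± 0.07 and Atp2b1 fell by 0.56 ± 0.07 on the log2 scale (adjusted p = 7.87e-17, 8.53e-15, 7.34e-16 and 1.27e-12). These 5 passed in all 10 alternatives. Ryr3 (0.15 ± 0.10, adjusted p = 0.245) and Atp2a2 (-0.09 ± 0.08, adjusted p = 0.404) did not pass.

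Within glia, astrocytes exceeded oligodendrocytes in 2 of 9 members, against 12.6% of all genes, and were lower in 1 of 9, against 12.2%. Itpr2 was higher by 3.26 ± 0.39 (9.6-fold, adjusted p = 3.53e-12) and Atp2a2 by 0.62 ± 0.17 (1.53-fold, adjusted p = 0.00325), both in all 10 alternatives. Atp2b1 fell by 0.39 ± 0.14 on the log2 scale (adjusted p = 0.0347). It did not pass without PE-low 1, PE-low 2 or PE-high 1 (adjusted p = 0.123, 0.141 and 0.225). Its log2 fold change was 0.28 with no upper limit on genes per nucleus, where the oligodendrocyte class was rebuilt with 324 nuclei, against 457 here.

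Oligodendrocyte precursors exceeded mature oligodendrocytes in 1 of 9 members, against 9.9% of all genes, and were lower in 3 of 9, against 12.1%. Itpr2 was higher by 3.83 ± 0.40 (14.3-fold, adjusted p = 2.78e-14) in all 10 alternatives. Atp2b1 fell by 0.98 ± 0.17, Ryr2 fell by 0.90 ± 0.23 and Itpr1 fell by 0.58 ± 0.23 on the log2 scale (adjusted p = 2.67e-06, 0.00157 and 0.0625). With a mitochondrial limit of 15% all 3 changed direction (log2 fold changes of 0.09, 1.74 and 0.84), and Ryr2 (adjusted p = 3.00e-13) and Itpr1 (8.51e-06) then passed as higher in precursors. At that limit the oligodendrocyte class held 1245 nuclei, 754 of them from PE-low 2, and a cluster of 2784 nuclei with Prr5l and Sec14l5 among its leading genes, which also lead the class used here, stayed unnamed. With no upper limit on genes Ryr2 (0.60) and Itpr1 (0.55) changed direction as well and no call of the 3 held. Classes were rebuilt at that setting too, and the oligodendrocyte class then held 324 nuclei, against 457 here. A cluster of 151 nuclei with Prr5l and 4930420G21Rik among its leading genes stayed unnamed there. The Itpr1 call was also lost without PE-low 1, PE-low 2 or PE-high 1. The Itpr2 difference was the member difference between glial classes that held best, together with Atp2a2 between astrocytes and oligodendrocytes.

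Of 77 other genes of calcium handling with a row in the files (exchangers, store-operated entry, mitochondrial uptake, store proteins, regulators, IP3 metabolism, calcineurin and other pumps), 52 were tested between classes. In striatal against excitatory nuclei 29 of them were higher (55.8%, against 31.6% of all genes) and 8 lower (15.4%, against 22.9%). Higher were 4 of 6 exchangers, 1 of 3 genes of store-operated entry, 4 of 6 of mitochondrial uptake, 3 of 5 store proteins, 5 of 10 regulators, 5 of 8 genes of IP3 production and removal, 7 of 12 of calcineurin and NFAT and 0 of 2 other pumps. Lower were 1 exchanger, 4 regulators, 1 gene of IP3 production and removal, 1 of calcineurin and NFAT and 1 other pump. Grm5 (1.21 ± 0.06), a metabotropic glutamate receptor that drives phospholipase C, was higher and the phospholipase Plcb4 fell by 3.18 ± 0.14 on the log2 scale (adjusted p = 1.27e-36 and 1.50e-42). The calcineurin subunit Ppp3ca was higher (1.21 ± 0.06, adjusted p = 1.10e-39), the exchanger Slc8a1 fell by 2.997 ± 0.09 on the log2 scale (adjusted p = 6.82e-58), and the scaffold Homer2 fell by 2.28 ± 0.34 on the log2 scale (adjusted p = 6.23e-09).

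In interneurons against excitatory nuclei, 6 of the 52 were higher (11.5%, against 16.4% of all genes) and 11 lower (21.2%, against 14.8%). The potassium-dependent exchanger Slc24a3 was higher (1.80 ± 0.13, adjusted p = 1.72e-24), as were Asph (0.54 ± 0.15) and Nfatc3 (0.89 ± 0.24). Slc8a1, Homer1 and Ppp3ca fell by 1.06 ± 0.10, 1.28 ± 0.13 and 0.75 ± 0.09 on the log2 scale. Between the interneuron classes 5 were higher (9.62%, against 8.65% of all genes) and 8 lower (15.4%, against 7.99%) in Sst and Pvalb nuclei, with Slc24a2 higher by 1.44 ± 0.20 and Slc24a3 lower (log2 fold change -2.03 ± 0.18), so 2 exchangers of the same family went in opposite directions. Slc8a3 (1.17 ± 0.33) and Rcan2 (0.86 ± 0.26) were the other higher genes named by the rule, and Homer2 (-2.998 ± 0.35) and Plcb4 (-0.97 ± 0.27) the lower ones.

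In upper layer against layer 6 corticothalamic nuclei, 11 were higher (21.2%, against 14.5% of all genes) and 5 lower (9.62%, against 12.3%), with Slc24a4 (1.90 ± 0.21) and Itpka (1.56 ± 0.21) higher and Slc8a1 (-1.34 ± 0.14), Slc24a2 (-0.81 ± 0.15) and Nfatc2 (-3.91 ± 0.73) lower on the log2 scale. Of the direct against indirect pathway tests only 1 of 52 passed (1.92%, against 1.83% of all genes lower), Plcb4, which fell by 1.26 ± 0.40 on the log2 scale (adjusted p = 0.0633). Glia had 14 higher (26.9%, against 27.6% of all genes) and 14 lower (26.9%, against 22.3%) than neurons. Itprid2 (1.71 ± 0.21), a partner of IP3 receptors, the IP3 kinase Itpkb (2.63 ± 0.49) and Plcb4 (0.63 ± 0.12) were higher in glia, and Grm5 (-0.90 ± 0.06), Homer1 (-0.81 ± 0.09) and Plcb1 (-0.45 ± 0.06) were lower.

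Astrocytes had 6 of these genes higher (11.5%, against 12.6% of all genes) and 10 lower (19.2%, against 12.2%) than oligodendrocytes: Ahcyl1 (1.53 ± 0.18), which binds IP3 receptors, Plcb1 (1.04 ± 0.15) and the mitochondrial uniporter Mcu (1.66 ± 0.23) were higher, while Slc24a2 (-2.39 ± 0.17), Slc8a1 (-1.55 ± 0.17) and Jph1 (-1.36 ± 0.31) were lower. Oligodendrocyte precursors had 5 higher (9.62%, against 9.9%) and 9 lower (17.3%, against 12.1%), with Itpkb (3.57 ± 0.77), Mcu (1.30 ± 0.29) and Plcb4 (1.02 ± 0.27) higher and Slc24a2 (-3.07 ± 0.20), Slc8a1 (-0.91 ± 0.18) and Jph1 (-1.98 ± 0.45) lower.

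The study's question was whether EVs rich in phosphatidylethanolamine change gene expression in 5XFAD brain. PE-high was compared with PE-low within 7 broad classes by edgeR on sums per library (n = 2 libraries per group, for which an exact permutation test cannot go below p = 0.333). Called members were 0 of 52 tests, and 5 of the 52 had an unadjusted p under 0.05. The called share of all genes was 0% in excitatory (0 of 12716, with 591 at an unadjusted p under 0.05), 0% in striatal (452 of 10571 unadjusted), 0.0411% in interneuron (2 of 4862 called), 0% in astrocyte (281 of 3846 unadjusted), 0% in oligodendrocyte (182 of 3552 unadjusted), 0.069% in oligodendrocyte precursor (1 of 1449 called) and 0% in microglia nuclei (67 of 1525 unadjusted). DESeq2 called 0 genes in all 7 classes, with 109, 67, 32, 71, 25, 4 and 18 genes at an unadjusted p under 0.05 in the same order.

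In excitatory nuclei, the PE-low libraries had 179 and 183 CPM of Ryr3, and 256 and 244 CPM were measured with PE-high. Both PE-high libraries were above both PE-low libraries, with a log2 fold change of 0.49 ± 0.11 (1.40-fold), an unadjusted p of 0.000321 and an adjusted p of 0.509 by edgeR. Over 10 alternatives its log2 fold change stayed between 0.34 and 0.54 and its adjusted p between 0.273 and 1.00. Among the 7 excitatory classes, the PE-high mean was higher in 6. Both PE-high libraries were above both PE-low libraries in 3 of the 7 and below them in 1. In upper layer nuclei the groups overlapped, with 71.0 and 142 CPM in PE-low and 172 and 133 CPM in PE-high. In layer 6 corticothalamic nuclei Ryr3 was at 305 and 243 CPM in PE-low and 358 and 392 CPM in PE-high. In layer 5 nuclei, the excitatory class with the highest Ryr3 level, the order was the reverse, with 703 and 756 CPM against 647 and 686 CPM. Layer 5 nuclei were 6.44% and 3.76% of the excitatory nuclei in PE-low and 8.44% and 7.34% in PE-high. Rorb middle layer nuclei, with the lowest Ryr3 level (28.3 CPM), were 18.8% and 17.4% in PE-low and 11.5% and 15.2% in PE-high. Claustrum or Car3 nuclei (129 CPM) were 2.63% and 2.23% in PE-low and 3.73% and 3.25% in PE-high. The part of these differences in the Ryr3 value of the whole class was not tested.

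Atp2a2 in excitatory nuclei was at 280 and 262 CPM in PE-low and at 214 and 222 CPM in PE-high, again with no overlap (log2 fold change -0.29 ± 0.11, unadjusted p = 0.0161, adjusted p = 0.968 by edgeR). The other 7 tested members had adjusted p values of 1.00 in excitatory nuclei. Their log2 fold changes were 0.02 ± 0.10 for Itpr1, 0.55 ± 0.49 for Itpr2 (6 to 11 UMIs per library), 0.12 ± 0.26 for Ryr1, -0.05 ± 0.10 for Ryr2, -0.0015 ± 0.10 for Atp2b1, -0.15 ± 0.10 for Atp2b2 and -0.14 ± 0.14 for Atp2b4. Ryr2 in these nuclei was at 1068 and 1160 CPM in PE-low and 1070 and 1045 CPM in PE-high, which overlapped, as did Itpr1 and Ryr1. Itpr2, Atp2b1, Atp2b2 and Atp2b4 had no overlap between the groups either. For Atp2b1 the values were 907 and 912 CPM in PE-low and 902 and 884 CPM in PE-high. A lack of overlap therefore did not set Ryr3 and Atp2a2 apart from these members.

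In striatal nuclei, 0 of 8 tested members passed, and none had an unadjusted p under 0.05. Their log2 fold changes ran from -0.36 for Ryr1 to -0.007 for Atp2a2, all below 0, against a median of -0.0029 over all 10571 genes tested. Without PE-low 1, the log2 fold changes were -0.28 ± 0.08 for Ryr3 and -0.26 ± 0.08 for Atp2b1. In the whole set Ryr3 was at 1834 and 2173 CPM in PE-low and at 1884 and 1815 CPM in PE-high, so PE-low 2 was the library that stood above the others. Striatal Atp2b1 was at 1611 and 1667 CPM in PE-low and at 1385 and 1478 CPM in PE-high, without overlap, and Itpr1 at 876 and 876 CPM against 703 and 783 CPM. Ryr1 and Atp2b2 had no overlap in striatal nuclei either. Within each of the direct, indirect and other striatal classes, the Atp2b1 libraries of the groups overlapped. Itpr1 had no overlap in the direct and indirect pathway classes. Other striatal nuclei had lower levels of Atp2b1, Itpr1 and Ryr3 than both pathway classes. They were 263 of 728 and 87 of 554 striatal nuclei in PE-low. In PE-high they were 167 of 338 and 343 of 775. The part of this makeup in the striatal values was not tested.

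In interneurons, Ryr3 stood at 78.3 and 57.5 CPM in PE-low against 118 and 146 CPM in PE-high (22, 22, 16 and 37 UMIs), a log2 fold change of 1.03 ± 0.30 (unadjusted p = 0.00161, adjusted p = 0.441 by edgeR). It passed with no upper limit on genes per nucleus (1.39 ± 0.30, adjusted p = 0.00941) and changed direction with a mitochondrial limit of 15% (-0.28 ± 0.19). The remaining 5 tested members of this class had log2 fold changes of -0.31 to 0.19. In Sst and Pvalb interneurons Ryr3 was at 46.2 and 15.6 CPM in PE-low and 112 and 152 CPM in PE-high (9, 4, 10 and 24 UMIs). In Adarb2 interneurons the order was the reverse, with 151 and 142 CPM against 130 and 136 CPM (13, 18, 6 and 13 UMIs).

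In astrocytes, Ryr2 was at 320 and 222 CPM in PE-low and at 703 and 437 CPM in PE-high, from 56, 72, 59 and 75 UMIs. Both PE-high libraries were above both PE-low libraries, with a log2 fold change of 1.07 ± 0.34 (2.09-fold, unadjusted p = 0.00669, adjusted p = 0.621 by edgeR). The astrocyte IP3 receptor Itpr2 went the other way, with 212 and 271 CPM in PE-low and 95.3 and 134 CPM in PE-high (log2 fold change -1.03 ± 0.36, unadjusted p = 0.0114, adjusted p = 0.621), from 37, 88, 8 and 23 UMIs. Atp2a2 (lower with PE-high) and Atp2b4 (higher) had no overlap between the groups in astrocytes either. The Ryr2 value passed without PE-high 2 (1.39 ± 0.40, adjusted p = 0.0703) and with the replicate number as a block (1.05 ± 0.25, adjusted p = 0.0294), and it was 0.14 ± 0.24 with a mitochondrial limit of 15%.

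Markers of other cells moved with these astrocyte values. The summed level of the 4 neuron markers in astrocytes was 2299 and 1800 CPM in PE-low and 3418 and 2856 CPM in PE-high, with all 4 detected in every library. The 6 excitatory neuron markers summed to 863 and 752 CPM in PE-low and 1143 and 1067 CPM in PE-high. The 8 astrocyte markers summed to 12836 and 17037 CPM in PE-low and 8991 and 12670 CPM in PE-high. The share of free RNA estimated in astrocytes was 20.6%, 24.03%, 27.7% and 23.7% in PE-low 1, PE-low 2, PE-high 1 and PE-high 2. The part of neuronal RNA in the Ryr2 and Itpr2 values was not tested. After subtraction of the estimated free RNA the Ryr2 log2 fold change was 1.19 ± 0.39.

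**Figure D4:**
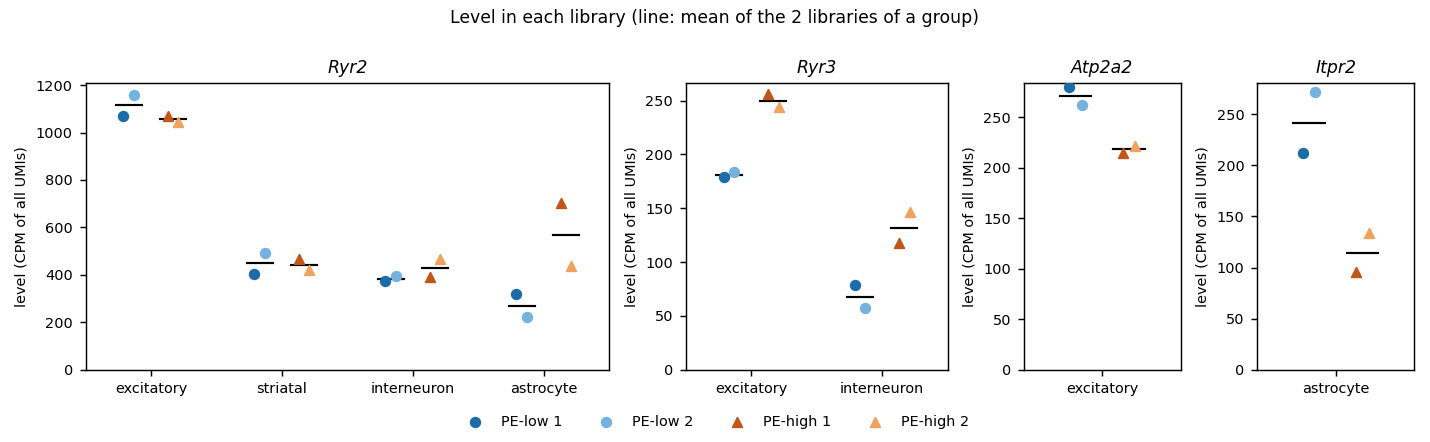
Levels of 4 members in each library, in the classes where an unadjusted p was under 0.05 (for Ryr2 also in the other neuronal broad classes). The vertical axis is the level in CPM of all UMIs and starts at 0, circles are PE-low and triangles PE-high libraries, and lines are means of 2 libraries. Ryr3 in excitatory nuclei and interneurons and Ryr2 in astrocytes are higher in both PE-high libraries, and Atp2a2 in excitatory nuclei and Itpr2 in astrocytes are lower.

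In oligodendrocytes, oligodendrocyte precursors and microglia, 0 of 7 members passed in each, and none had an unadjusted p under 0.05. The log2 fold changes ran from -0.84 for Atp2b4 to 0.55 for Itpr1 in oligodendrocytes, from -0.10 for Ryr2 to 0.74 for Itpr1 in precursors and from -0.30 for Ryr3 to 0.69 for Itpr2 in microglia. The smallest library held 50, 19 and 19 nuclei of these classes. Of 269 treatment tests of other calcium genes 0 passed and 10 had an unadjusted p under 0.05.

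**Figure D5:**
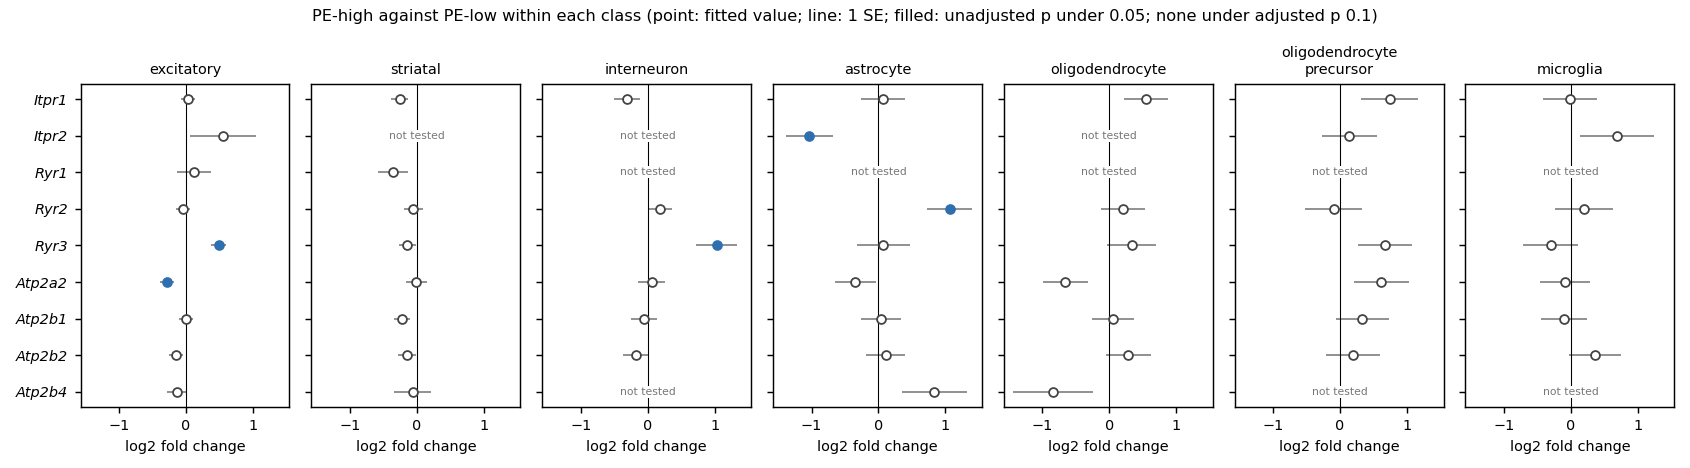
Log2 fold changes of PE-high against PE-low for 9 members in 7 broad classes. Points are fitted values, lines span 1 SE, and filled points had an unadjusted p under 0.05. The 5 filled points are Ryr3 and Atp2a2 in excitatory nuclei, Ryr3 in interneurons, and Ryr2 and Itpr2 in astrocytes, and no point passed an adjusted p of 0.1.

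Whether the effect of PE-high EVs differed between classes was tested by the interaction of class and treatment. Between astrocytes and excitatory nuclei, 1 of 9 members was called, against 0.269% of all genes (21 of 7795). This was Ryr2, whose log2 fold change was larger in astrocytes by 1.04 ± 0.28 (adjusted p = 0.0943 by edgeR). It passed in 3 of 9 alternatives. Without PE-low 2 the difference was 0.63 (adjusted p = 0.942), without PE-high 1 it was 0.81 (adjusted p = 1.00), and with a mitochondrial limit of 15% it was 0.09. Between striatal and excitatory nuclei 0 of 9 members were called, against 0.0128% of all genes, and Ryr3 had the smallest p (difference -0.44 ± 0.18, unadjusted p = 0.0176, adjusted p = 0.804). Between interneurons and excitatory nuclei 0 of 9 were called, against 0.0257% of all genes, so that the Ryr3 values of these classes (1.03 and 0.49) were not shown to differ (difference 0.61 ± 0.41, adjusted p = 0.992).

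Across the 19 named classes, the levels of some members ran in parallel. As a description over classes, which share libraries and depth, Pearson's r of log2(CPM + 1) was 0.81 for Itpr1 and Atp2b1, 0.72 for Ryr3 and Atp2b1 and 0.67 for Ryr1 and Atp2b1, the highest of 36 pairs. It was lowest for Itpr1 and Itpr2, at -0.70. Among 7219 genes with a mean of at least 20 CPM, Lrrk2 (r = 0.90) was among the genes most like Itpr1, Cabp1 (0.91) and Flrt2 (0.87) were most like Ryr2, Bcr and Sez6 (0.82 for both) most like Ryr3, and Tiam2 (0.85) and Kcnj4 (0.84) most like Ryr1. Itpr2 was most like Abtb2 (0.90) and Nipbl (0.89). For the pumps these were Zfp933 (0.76) and Dcp1a (0.75) for Atp2a2, Gm15738 (0.90) and Slit3 (0.89) for Atp2b1, Sept11 (0.88) and Kalrn (0.86) for Atp2b2, and Enc1 (0.83) and Pde1a (0.77) for Atp2b4. Lrrk2, a Parkinson's disease kinase abundant in striatal projection neurons, thus followed the order of Itpr1 over the classes. The nearest genes to Itpr3 (Ahctf1, 0.83, and Tmem33, 0.78) rest on 14 UMIs.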

How the data were processed

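Per the labels and the methods of the study, nuclei were isolated from frozen brain sections and libraries made with 10x Genomics 3' v3.1 chemistry. The authors aligned and counted with Cell Ranger 7.1.0 on mm10 and deposited, for each of 4 libraries, a matrix of raw UMI counts that still held empty droplets (1275624 to 1760811 barcodes). The deposited gene and barcode lists hold names only, with no other measured values. Whether intronic reads were counted is not given in the sources used here.

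Nuclei were called from a knee (the 0.99 quantile of UMIs divided by 10) and a test of barcodes with at least 500 UMIs against near-empty barcodes (10000 simulations, FDR 0.01). Following the limits that the study states, nuclei under 200 or over 2500 genes, or over 3% mitochondrial UMIs, were removed. The study states more nuclei under these limits than were kept here, for a reason not given in the sources used here. A limit of 15% kept 7596 to 10288 nuclei per library, in all close to the number that the study states. Which limit gave the study's nuclei was not tested. Classes were rebuilt under the 15% limit and with no upper limit on genes, so a class name there can stand for other clusters. Doublets were not removed and no caller was run. Clustering used scanpy 1.11.5 with 2000 variable genes, 30 components, 20 neighbours and Leiden at a resolution of 1.5. A cluster was named with at least 3 and 60% of a class's markers at 1.5 times their median over clusters and 20 CPM, its naming genes at no less than their maximum divided by 3, and no majority of another class's markers among its 10 leading genes. These thresholds were set after clusters had been seen and were revised several times. Differences from the study may come from these rebuilt names.

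Summed counts were tested with edgeR 4.0.16 (quasi-likelihood, TMM, filterByExpr, R 4.3.3), with DESeq2 1.42.0 as an alternative, and the adjusted p threshold was 0.1. No columns of authors' comparisons were used. Alternatives were no filter on low counts, a replicate block, no library term, leaving out each library, a mitochondrial limit of 15%, no upper limit on genes, and subtraction of estimated free RNA (4.86% to 33.9% of UMIs, median 12.5%). Levels were also recomputed at 500 UMIs per nucleus, which left out 41 nuclei. The scripts were tested on simulated data.

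The members, the 8 lists of other calcium genes and the class contrasts were chosen with earlier results of these data known. Genes were named by a rule: each member as a level in every class, every tested member in excitatory nuclei, members with an unadjusted p under 0.05 in other treatment comparisons, every member called between classes, up to 3 other calcium genes per direction with the smallest p, and the 2 genes most like each member. Some genes that this rule names are not reported here. The labels do not say that the replicate numbers pair libraries across groups, and with 2 pairs the correlation of their deviations was -0.00834 to 0.147. Whether the 2 libraries of a group came from separate preparations beyond their pooled mice is not stated. The p-values of treatment within a class thus measure the spread between these libraries. Class and interaction tests had library as a term, so their p-values measure the spread left between class sums.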

Additional observations from a re-analysis of the deposited data

Results flagged for a closer look

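The change of Ryr2 with PE-high EVs passed as different between astrocytes and excitatory nuclei in a test of the interaction of class and treatment. The difference of log2 fold changes was 1.04 ± 0.28 (adjusted p = 0.0943 by edgeR, over 7795 genes), from 1.07 in astrocytes and -0.05 in excitatory nuclei. Both PE-high libraries were above both PE-low libraries in astrocytes (703 and 437 against 320 and 222 CPM), and the libraries overlapped in excitatory nuclei. The call was lost in 6 of 9 alternatives (adjusted p = 0.113 to 1.00), and the difference ran from 0.09 to 1.35. DESeq2 gave 1.07 ± 0.25 (adjusted p = 0.000979), from a fit without an adjusted p for 7103 of the genes. Neuron markers were also higher in the PE-high astrocyte sums, as given with the astrocyte values, and their part in the result was not tested.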

How the results depend on the processing

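Of 318 recomputed values for the 32 class differences called, 274 kept their direction and call, 35 kept the direction only and 9 changed direction. With a mitochondrial limit of 15% these were Ryr3 (0.069), Itpr1 (-0.69) and Ryr1 (-1.52) between interneuron classes, and Itpr1 (0.84), Atp2b1 (0.092) and Ryr2 (1.74) between oligodendrocyte precursors and oligodendrocytes. With no upper limit on genes they were Atp2b1 (0.28) between astrocytes and oligodendrocytes, and Itpr1 (0.55) and Ryr2 (0.60) between precursors and oligodendrocytes. Direct against indirect pathway had no value at 15%, where no direct pathway class was named. For treatment 10 of 119 values changed direction. In excitatory nuclei these were Itpr1 (-0.028 at 15%, -0.014 to 0.070 without a library, lowest without PE-low 2), Itpr2 (-0.12 at 15%), Ryr1 (-0.050 to 0.32 without a library, lowest without PE-low 1), Ryr2 (-0.13 to 0.033, highest without PE-low 2) and Atp2b1 (0.0023 with DESeq2, 0.022 after subtraction of free RNA, -0.024 to 0.031 without a library, highest without PE-high 2). In interneurons Ryr3 was -0.28 at 15%. The cause was not tested. The 15% limit kept 79 of 140 class levels within 1 SD, no upper limit on genes 132 of 160, subtraction of free RNA 110 of 160 and thinning 110 of 160. Levels moved over 1.5-fold numbered 32, 11, 19 and 37 in the same order. The class with the highest level stayed the same for 5 of the 10 members at 15%, over the 14 classes found there. It stayed the same for 9 with no upper limit on genes, 9 after subtraction of free RNA and 6 after thinning.

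With the replicate block, genes called for treatment numbered 6 in excitatory, 29 in striatal, 66 in astrocyte and 0 in interneuron, oligodendrocyte, precursor and microglia nuclei. The only member called was Ryr2 in astrocytes, as given above. Without the filter on low counts these were 2 in excitatory, 6 in astrocyte, 1 in microglia and 0 in precursor nuclei. DESeq2 and the 15% limit called 0 in interneurons and precursors, no upper limit 9 in interneurons, and subtraction of free RNA 2 in astrocytes. Leaving out a library gave 0 to 34 called genes in excitatory, 0 to 238 in striatal, 1 to 12 in interneuron, 0 to 46 in astrocyte, 0 to 3 in oligodendrocyte, 0 to 1 in precursor and 0 to 6 in microglia nuclei.

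DESeq2 split the calls of glia against neurons into 2294 higher and 1166 lower, against 1798 and 1451 by edgeR. At 15% the genes called between classes were 5372 for striatal, 3292 for interneuron, 3746 for astrocyte, 3773 for precursor and 7264 for glial contrasts. Without a library they were 153 to 212 for the striatal pathways, 1067 to 1720 for astrocytes, 891 to 1420 for precursors and 2205 to 3405 for glia. Interactions with striatal nuclei had 12 calls with DESeq2, 2 without the filter, 0 at 15% and with no upper limit, and 0 to 24 without a library. Those with interneurons had 1 with DESeq2, with no upper limit and after subtraction of free RNA, 0 at 15%, and 0 to 5 without a library. Those with astrocytes had 124 with DESeq2, 10 without the filter, 0 at 15% and with no upper limit, and 0 to 120 without a library. DESeq2 gave no adjusted p for 6196 genes in the striatal and 7103 in the astrocyte interaction.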

Other observations

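Among the 8 clusters that met no class rule, the cluster led by Ano1 and Myo5b (286 nuclei) had high levels of several members. It held 1216 ± 97.8 CPM of Ryr2, 1043 ± 230 CPM of Ryr3, 421 ± 57.4 CPM of Atp2a2 and 197 ± 66.7 CPM of Atp2b4 (n = 4 libraries), and 155 ± 58.3 CPM of Itpr1. Its Ryr2 level was close to that of upper layer nuclei (1243 ± 95.1) while its Ryr3 level lay between those of layer 5 (698 ± 45.4) and other striatal nuclei (1407 ± 40.2). The cluster led by Otof and Gpr149 (367 nuclei) had 65.1 ± 26.7 CPM of Ryr1, between the direct (80.3 ± 17.2) and indirect pathway (43.9 ± 8.4) classes, with 647 ± 176 CPM of Ryr3. The cluster led by Gm10635 and Cckbr (54 nuclei) had 1233 CPM of Ryr3, 1338 CPM of Atp2b1 and 762 CPM of Itpr1 over all libraries together. In the 100 nuclei named Slc17a6 subcortical Ryr2 was at 96.1 CPM over all libraries together, the lowest level of this gene in any class, and cholinergic nuclei (77) had 88.7 CPM of Itpr1.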
